A study of Homo sapiens with 7 samples.

Results

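The regions described here are the places in the genome of OCI-Ly7 cells where the peak lists of all 6 factors met. The peaks of the 6 lists on chromosomes 1 to 22 and X were merged into union regions wherever they shared at least 1 bp, and a region was kept when it held at least 1 peak of every list. Of 111561 union regions 10590 met this rule (9.49%). They were thus chosen by the presence of peaks in all 6 lists, so that the co-occurrence of the factors, and the strength of their peaks in the regions, are given as description and without a test. OCI-Ly7 is an established human line of diffuse large B-cell lymphoma, grown in suspension, and the labels name no treatment. Chromatin was immunoprecipitated for the POU factors OCT1 and OCT2, their coactivator OCA-B, or MED1, EP300 or CREBBP, and sequenced (ChIP-seq), with 1 library per factor and 1 input library, and the results therefore describe 1 line and have no replicate check.

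OCT1 (gene POU2F1) and OCT2 (POU2F2) are POU transcription factors that bind the octamer, a DNA element with the letters ATGCAAAT. OCT1 is found in nearly all cell types, whereas OCT2 is most abundant in B cells. OCA-B (POU2AF1) is a lymphoid coactivator that is held on octamer DNA by these POU factors and is needed for germinal centres in mice. MED1 is a subunit of Mediator, the complex that links enhancers to RNA polymerase, and CREBBP and EP300 are paralogous acetyltransferases that mark active enhancers and promoters. Genes that B cells use at a high level often lie beside stretches of DNA where many such factors gather.

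The lists held 23571 (OCT1) to 82569 (EP300) peaks on these chromosomes, from libraries of 12357450 (CREBBP) to 27885791 (EP300) tags after duplicates were removed, and all were called against the same control library of 37517450 tags. The header gives a redundant rate of 0 for MED1 and CREBBP and of 0.08 to 0.2 for the others. The fold of a peak, which is its signal over the control as the authors' peak caller wrote it, was used only within its own list, since depth, duplicate handling and antibody differ between lists. Where a region held several peaks of a list, the one with the highest fold stands for it.

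A few promoters inside the regions show the octamer, the DNA element that the POU factors bind. They are the promoters of POU2F1, KCNN3, H2AC14 and the lncRNA gene LOC124902631, and they belong to the first 8 promoters with an octamer when the regions are ordered by the lowest of their 6 within-list ranks of fold. The letters are from RefSeq (GRCh38.p14), 250 bases before and 50 after the annotated start, read 5′ to 3′ along the gene, and the octamer (ATGCAAAT or its reverse complement ATTTGCAT) is in capitals. The POU2F1 promoter is an inner start of that gene at chr1:167328820-167329119 (plus strand). KCNN3, a potassium channel gene, has its promoter at chr1:154859827-154860126 (minus strand), with 2 octamers. The H2AC14 promoter at chr6:27814728-27815027 (minus strand) serves a replication-dependent histone H2A gene and overlaps that of the neighbouring histone gene H2BC14, so that the pair shares 1 octamer. LOC124902631 starts at chr11:11261581-11261880 (minus strand).
POU2F1: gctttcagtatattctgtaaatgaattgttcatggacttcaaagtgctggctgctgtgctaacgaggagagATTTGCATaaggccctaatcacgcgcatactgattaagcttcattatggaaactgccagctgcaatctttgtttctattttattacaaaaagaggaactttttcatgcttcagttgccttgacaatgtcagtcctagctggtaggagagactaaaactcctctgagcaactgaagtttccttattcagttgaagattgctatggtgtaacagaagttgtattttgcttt
KCNN3: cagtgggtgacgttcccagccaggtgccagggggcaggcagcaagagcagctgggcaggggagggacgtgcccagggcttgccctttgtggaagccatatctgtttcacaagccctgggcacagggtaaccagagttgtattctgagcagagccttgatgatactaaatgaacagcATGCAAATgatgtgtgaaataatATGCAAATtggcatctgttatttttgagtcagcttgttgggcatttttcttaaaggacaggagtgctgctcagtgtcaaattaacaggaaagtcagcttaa
H2AC14: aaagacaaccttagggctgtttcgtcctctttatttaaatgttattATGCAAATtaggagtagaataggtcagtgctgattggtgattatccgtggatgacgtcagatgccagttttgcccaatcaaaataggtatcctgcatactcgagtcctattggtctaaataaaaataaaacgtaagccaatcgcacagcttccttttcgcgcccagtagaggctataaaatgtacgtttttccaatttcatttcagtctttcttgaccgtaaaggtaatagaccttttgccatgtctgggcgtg
LOC124902631: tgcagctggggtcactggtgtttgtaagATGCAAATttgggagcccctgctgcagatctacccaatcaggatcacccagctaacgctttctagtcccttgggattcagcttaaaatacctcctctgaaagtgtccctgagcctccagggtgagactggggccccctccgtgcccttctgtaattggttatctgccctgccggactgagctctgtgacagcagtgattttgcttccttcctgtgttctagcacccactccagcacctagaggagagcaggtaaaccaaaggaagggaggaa

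At these promoters, and wherever promoters are described by name, the fold is that of the peak of each list nearest to the octamer. At POU2F1 the octamer lay 179 bp before the start. The folds there were 45.5 for OCT2, 42.6 for OCT1, 34.7 for OCA-B, 32.4 for EP300, 42.4 for CREBBP and 21.6 for MED1, and the summits of OCA-B, OCT2 and OCT1 fell 10.5, 22.5 and 34.5 bp from the centre of the octamer. All 6 factors were therefore strong at a start of the gene that encodes OCT1 itself. At LOC124902631 the folds were 57.2 for OCT2, 15.2 for OCT1, 47.2 for OCA-B, 44.2 for EP300, 52.1 for CREBBP and 24.6 for MED1. At H2AC14 they were 40.4 for OCT2, 12.6 for OCT1, 30.4 for OCA-B, 10.01 for EP300, 21.4 for CREBBP and 55.8 for MED1. The region of this histone promoter held stronger peaks farther off, with up to 22.9 for EP300 and 42.0 for CREBBP in the region shared with H2BC14. KCNN3 had folds of 34.8 for OCT2, 21.4 for OCT1 and 22.9 for OCA-B, and the nearest OCA-B and OCT1 summits lay 8.5 and 2.5 bp from an octamer, but the nearest OCT2 summit 482.5 bp. The other 4 of the first 8 were the promoters of PRDM2, H2AC4, H2AC16 and the lncRNA gene LOC105372789. The nearest OCT2 summit lay 3.5 bp from the octamer at H2AC4 and 15.5 bp at H2AC16, but 2229.5 bp at PRDM2 and 1341.5 bp at LOC105372789, so an octamer inside a region was not always under its OCT2 summit.

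In shape the regions were wide and mostly compact at their centre. Their median width was 1352 bp (quartiles 902 and 2177 bp, range 237 to 33086 bp), against 303 bp for all other union regions. The share of union regions with all 6 lists went up with width, which itself grows as peaks of more lists are merged, with 0.452% up to 500 bp, 13.1% from there to 1 kb, 45.4% from 1 to 2 kb and 79.2% above. Exactly 6 peaks, 1 of each list, were present in 4352 regions (41.1%). A base under a peak of all 6 lists at once was present in 9818 regions (92.7%, exact binomial 95% interval 92.2 to 93.2, counting error only), and the longest such stretch had a median of 255 bp. The other 772 regions were chains of peaks without a common base.

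The members were spread over all chromosomes used, with 8.50% (chromosome 13) to 11.9% (chromosome 19) of the union regions of a chromosome. When only the stronger 50% of each list by −log10 q was used, 5204 regions held all 6, and 6979 of the 10590 had all 6 strongest summits within 250 bp.

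OCT1 set the limit of membership. Among 13351 regions with exactly 5 of the lists, 11896 lacked OCT1, 658 lacked MED1, 645 CREBBP, 67 OCT2, 43 OCA-B and 42 EP300. The OCT1 list was the shortest, and an OCT1 peak lay within 1 kb of 2290 (19.3%) of the regions that lacked it. Inside the regions OCT1 had the lowest within-list rank of fold in 7072 of 10590 (66.8%), against 326 (3.08%) for OCA-B and 391 (3.69%) for OCT2. The regions held 52.4% of the OCT1 peaks, against 16.4% (EP300) to 36.9% (CREBBP) of the other lists. Ranks within lists of such unlike length and share are no separate evidence on OCT1. Just inside the limit lay regions with SIX2, SETD7, CEP43, LOC441239 and GGA1 as nearest protein-coding genes, at 170802, 987, 21342, 18520 and 1418 bp. Their OCT1 peaks had a −log10 q of 1.3075 and folds of 2.43, 2.43, 2.20, 2.43 and 2.43. Just outside it lay regions near TRAK1 and LRRC37A2, which abutted an OCT1 peak without sharing a base, and regions near PYGO2, PDCD10 and TMEM19, with a gap of 1 bp to an OCT1 peak.

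By fold, the regions drew on the strong end of each list except OCT1. The median fold of the strongest peak per region was 11.96 for OCA-B, against 5.14 for all peaks of that list outside the regions. It was 17.2 against 5.48 for OCT2, 9.61 against 4.72 for MED1, 16.2 against 5.97 for CREBBP and 19.0 against 5.04 for EP300. For OCT1 it was 5.72 in the regions and 5.81 elsewhere, so by median fold even the strongest OCT1 peaks of the regions were no stronger than the peaks outside. The 2 measures are unlike. Regions held a mean of 1.17 (OCT1) to 1.63 (OCT2) peaks of a list, of which only the strongest was taken, while outside every peak counted. This raises the values in the regions. With the stronger 50% of each list the CREBBP median in the regions was 26.2.

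By count, the regions held 52.4% of all OCT1 peaks, 36.9% of CREBBP, 36.4% of MED1, 30.8% of OCA-B, 23.4% of OCT2 and 16.4% of EP300 peaks. Of the top decile of each list by fold, 88.2% of MED1, 85.8% of CREBBP, 83.1% of OCA-B, 74.2% of OCT2 and 61.5% of EP300 peaks lay in the regions, against 20.3%, 25.7%, 20.2%, 17.7% and 6.10% of the bottom decile. OCT1 ran the other way by fold, with 52.7% of its top and 71.2% of its bottom decile inside. Ranked by −log10 q, a ranking added after the values were seen, the OCT1 shares were 70.7% of the top and 43.5% of the bottom decile. The order for OCT1 thus turned with the measure of strength, while the other 5 lists kept theirs. Why fold and q order the OCT1 peaks differently was not tested.

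**Figure D1:**
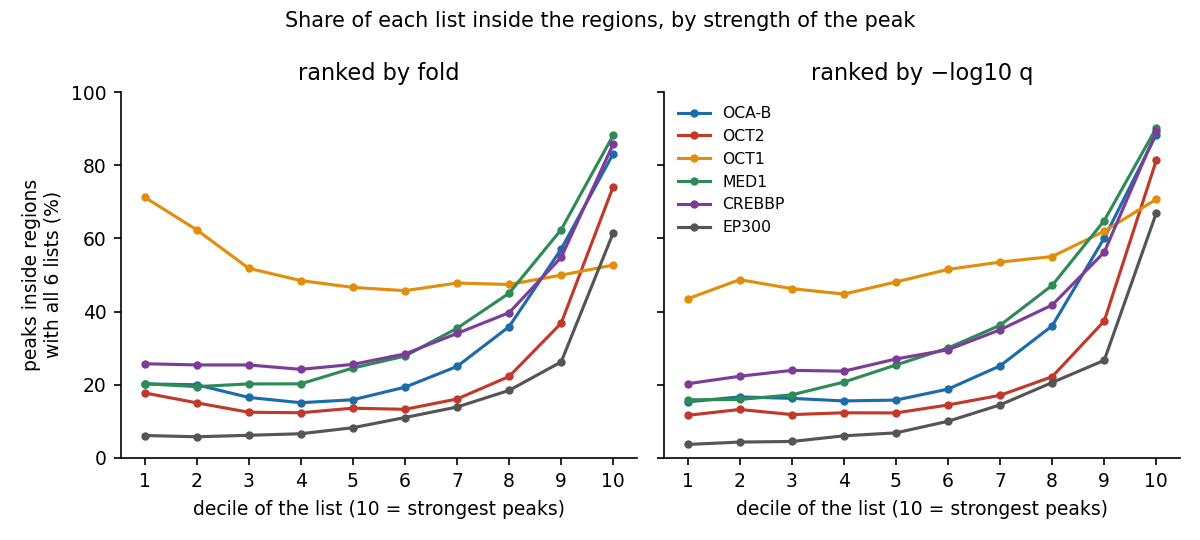
Percent of the peaks of each list that lay inside regions with all 6 lists (y axis), by decile of the list from weakest to strongest (x axis), ranked by fold (left) or by −log10 q (right). OCT1 stands at 71.2% in decile 1 and 52.7% in decile 10 by fold, but at 43.5% and 70.7% by −log10 q, and the other 5 lists are higher in decile 10 than in decile 1 in both panels.

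The place of a region went with which factors were strong in it. The annotation table used for positions gives no strand, so a region was called a gene boundary region when the middle of its 6 strongest summits lay no more than 1 kb from an end of an annotated lncRNA or protein-coding gene, and distal otherwise. By this rule 3295 of the regions (31.1%, 30.2 to 32.0) were at gene boundaries, 4823 (45.5%) were distal inside genes and 2472 (23.3%) lay between genes. The share at gene boundaries was 18.1% (17.4 to 18.8) in the regions that lacked OCT1 only and 18.3% (18.1 to 18.6) in all other union regions, with intervals for counting error only. Other sets of regions with 5 lists had higher shares, with 68.4% of those without CREBBP, 65.7% without OCT2, 40.5% without EP300 and 34.5% without MED1, and those without OCA-B had 20.9%. Against stranded starts, an alternative added after the values were seen, 27.4% of the regions lay within 1 kb of a start.

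Acetyltransferase and OCT2 folds were lower at gene boundaries than at distal regions. The median EP300 fold was 8.69 at gene boundaries and 23.7 at distal regions (ratio 0.367). For CREBBP it was 8.44 at gene boundaries and 22.3 at distal regions (0.379), and for OCT2 it was 9.92 and 20.8 (0.477). MED1 differed less, with 7.49 at gene boundaries and 10.96 at distal regions (0.683), and OCA-B less again, with 10.4 and 12.8 (0.812). OCT1 was the exception, with 5.96 at gene boundaries and 5.58 at distal regions (1.07). All distributions overlapped widely. With the pileup, the height of the ChIP signal alone, in place of fold, the ratio was 0.320 for EP300 and 1.00 for OCT1, whose small excess at gene boundaries therefore rests on the fold. In regions of exactly 6 peaks the EP300 ratio was 0.365.

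**Figure D2:**
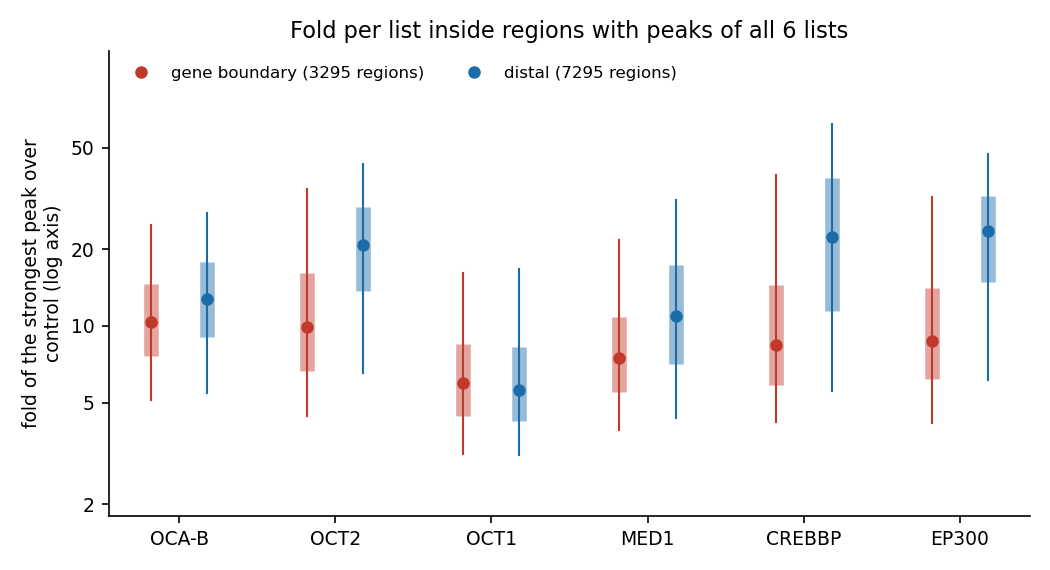
Fold of the strongest peak of each list (y axis, log scale) in gene boundary regions (red) and distal regions (blue), with the median as a point, the quartiles as a thick bar and the 5th to 95th percentile as a line. EP300 has medians of 8.69 and 23.7, CREBBP 8.44 and 22.3, and OCT1 5.96 and 5.58.

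The same split among peaks outside the regions was small, with ratios of gene boundary to distal median fold from 0.907 (CREBBP) to 1.08 (OCT1). In the regions that lacked OCT1 only, measured in the same way by the strongest peak per list, the ratio was 0.560 for EP300, 0.749 for CREBBP, 0.761 for OCT2, 0.975 for MED1 and 1.02 for OCA-B. A lower EP300 fold at gene boundaries was thus also present in regions without OCT1, with a ratio nearer to 1. Those regions had lower median folds throughout, for example 5.98 for OCA-B, against 11.96 in the regions with all 6. They were also narrower, with a median of 825 bp.

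The 6 summits lay close together, and more so at distal regions. All 6 strongest summits fell within 100 bp in 4630 regions (43.7%) and within 250 bp in 6979 (65.9%). Within 250 bp lay 50.4% of the gene boundary regions and 72.9% of the distal regions. Of the 15 pairs of lists, the closest over all regions were CREBBP with EP300 (median 23 bp) and OCA-B with OCT2 (24 bp). Other pairs were nearly as close, with 25 bp for OCA-B with EP300 and for OCT2 with EP300, and 26 bp for MED1 with CREBBP. In the other union regions with peaks of OCA-B and OCT2 their median distance was 36 bp. The widest was OCT1 with MED1 (78 bp).

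At gene boundaries OCT1 stood apart from the coactivators. Its median distance to MED1 was 171 bp at gene boundaries and 56 bp at distal regions, to CREBBP 152 and 47 bp, and to EP300 129 and 42 bp. The coactivators themselves stayed close there, with 30 bp between MED1 and CREBBP at gene boundaries and 25 bp at distal regions. OCT1 to OCT2 was 109 bp at gene boundaries and 32 bp at distal regions, whereas OCA-B to OCT2 was 34 and 21 bp.

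**Figure D3:**
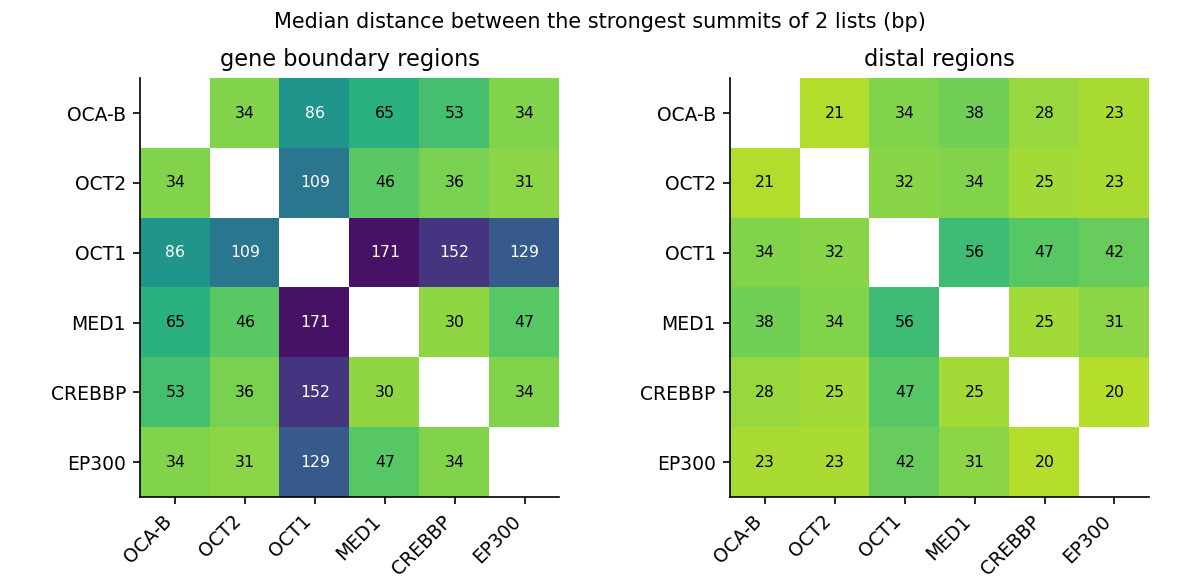
Median distance in bp between the strongest summits of each pair of lists, in gene boundary regions (left) and distal regions (right), with darker cells for larger distances. OCT1 with MED1 has the largest distance in both panels, 171 bp at gene boundaries and 56 bp at distal regions.

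Across the 10590 regions the folds of the coactivators ran together. Spearman's rho over regions was 0.85 for CREBBP with EP300, 0.83 for MED1 with CREBBP and 0.64 for MED1 with EP300. OCA-B with OCT2 gave 0.63, OCA-B with OCT1 0.42 and OCT2 with OCT1 0.38. OCA-B and OCT2 also ran with the coactivators, from 0.51 (OCA-B with EP300) to 0.61 (OCT2 with CREBBP). OCT1 was apart from them, with 0.19 for MED1, 0.17 for CREBBP and 0.12 for EP300. At distal regions OCT2 with OCT1 gave 0.52, at gene boundaries 0.23. These are descriptions across regions, which share the control library and are not replicates.

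The regions with the highest lowest rank over the lists show what strong occupancy by all 6 looked like. The first lay inside ACYP2, an acylphosphatase gene, at chr2:54097087-54104962 (hg38), and held 21 peaks. Its folds were 54.1 for OCT2, 36.2 for OCT1, 38.3 for OCA-B, 53.1 for EP300, 81.3 for CREBBP and 42.9 for MED1, each within the strongest 1% of its list. The next, at chr10:78658041-78660333, lay inside the lncRNA gene LOC105378379, with 409994 bp to the nearest protein-coding gene, ZMIZ1, which encodes a transcriptional coactivator. It had folds of 41.4 for OCT2, 46.9 for OCT1, 37.7 for OCA-B, 45.3 for EP300, 68.4 for CREBBP and 33.3 for MED1.

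The third lay inside the immunoglobulin kappa locus, which encodes the kappa light chain, at chr2:88879749-88886765. Its folds were 73.2 for OCT2, 29.7 for OCT1, 51.5 for OCA-B, 45.8 for EP300, 63.9 for CREBBP and 108.5 for MED1, and its MED1 peak was the highest by fold in that list. All 6 strongest summits of this region fell within 45 bp. The other 9 of the first 12 were nearest to TRANK1, TNS3, RNGTT, SLC2A5, TSC1, SPANXB1, FIBIN, CD46 and PLVAP, and all 12 were distal.

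Many regions had another close by. With regions joined when their edges lay within 10 kb, the 10590 regions formed 8220 clusters, of which 6568 held a single region and 461 held 3 or more. In all, 4022 regions (37.98%) had a neighbour, and 25.3% did when regions over 2 kb were left out. The largest cluster held 9 regions over 55.9 kb at chr12:113048303-113104167, near DTX1, a ubiquitin ligase of the Notch pathway, and RASAL1, a Ras GTPase-activating gene. A cluster of 8 lay at chr1:23591186-23628088, with ID3, an inhibitor of E proteins, and RPL11 as nearest protein-coding genes. RPL11 itself lies outside this cluster, starting at chr1:23691779. A further cluster of 8 lay near CCDC200 at chr17:43265158-43301002. Clusters of 7 lay near ZCCHC7 and GRHPR at chr9:37368302-37416019, at FAM167A at chr8:11415680-11461933, and at SLC48A1, HDAC7 and VDR at chr12:47797562-47838064.

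Each region was then assigned to whichever protein-coding gene had the closest end, up to 100 kb away, which held for 9390 of the 10590 regions. These fell to 5704 genes, 205 of them with 5 or more. The first 12 were CCDC200 and SPRED2 (12 regions each), BCAS1 (11), and AKAP13, CCDC88C, CUX1, DUSP22, ID3, P2RY8, PAX5, SORL1 and ZNF860 (10 each). The CCDC200 regions spanned chr17:43232899-43301002, and none lay within 1 kb of an end of that gene. This span holds the small nuclear RNA gene RNU2-1, so the caution on read placement given below for such genes may apply there. SPRED2 encodes an inhibitor of Ras signalling, PAX5 the B cell identity factor, P2RY8 a receptor that confines germinal centre B cells, and DUSP22 a phosphatase. In P2RY8 the highest folds over its regions were 43.3 for OCT2, 22.005 for OCT1, 30.0 for OCA-B, 63.2 for EP300, 89.4 for CREBBP and 40.1 for MED1. PAX5 reached 27.8 for OCT2, 8.95 for OCT1, 24.8 for OCA-B, 47.6 for EP300, 37.4 for CREBBP and 25.1 for MED1.

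Lists of B cell genes held the regions more often than the genome at large. Of all 19974 protein-coding genes, 31.4% had a region within 1 kb of an end or were the nearest gene of one within 100 kb, with a mean of 0.470 and a median of 0 nearest regions per gene. Of the 20 genes of B cell receptor signalling 19 had one (median of 2 regions), led by PLCG2, a phospholipase, with 9, and by the kinases SYK and LYN and the phosphatase INPP5D with 8 each, and PIK3R1 had none. Of 25 germinal centre genes 22 had one (median 3), led by P2RY8 (10), the repressor BACH2 (9) and the chemokine receptor CXCR4 (7), and SERPINA9, SUGCT and MARCKSL1 had none. Of 25 B cell identity genes 21 had one (median 2), led by PAX5 (10) and the factors EBF1 and TCF3 (6 each), and CD40, CR2, BANK1 and SPI1 had none. These lists were chosen with results of these data known, and genes are not replicates, so the counts stand beside the share of all genes without a test.

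Other programmes held fewer. The plasma cell list had 14 of 20 genes, with XBP1 (5 regions), which drives the secretory programme, and PRDM1 and SEL1L (4 each) in front. The CD40 and NF-kB list had 10 of 18, led by TNFAIP3 (4), REL and TRAF1 (3 each), and NFKB2, NFKBIA and CD80 were among those without. Class II antigen presentation had 6 of 13 genes, with 4 regions at CIITA, the master regulator of the class II genes, and 1 at CD74, while HLA-DRA, HLA-DRB1, HLA-DPA1, HLA-DPB1, HLA-DQB1, HLA-DMA and HLA-DOA had none on the primary chromosome. Ribosomal protein genes (11 of 20, led by RPL11 with 4) and cell cycle genes (11 of 20) were also above the share of all genes, with at most 2 regions for any of the cell cycle genes. The RPL11 count takes in part of the cluster near ID3, which ends at chr1:23628088, before the start of RPL11 at chr1:23691779. Among lists of other cell types the liver (6 of 20) and erythroid (5 of 20) lists were near the share of all genes, and 3 of 20 neuron, 3 of 20 T cell and 1 of 20 myeloid genes had a region. In the T cell list CD28 and LCK had 3 regions each and CD3D, CD3E and CD3G had none.

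**Figure D4:**
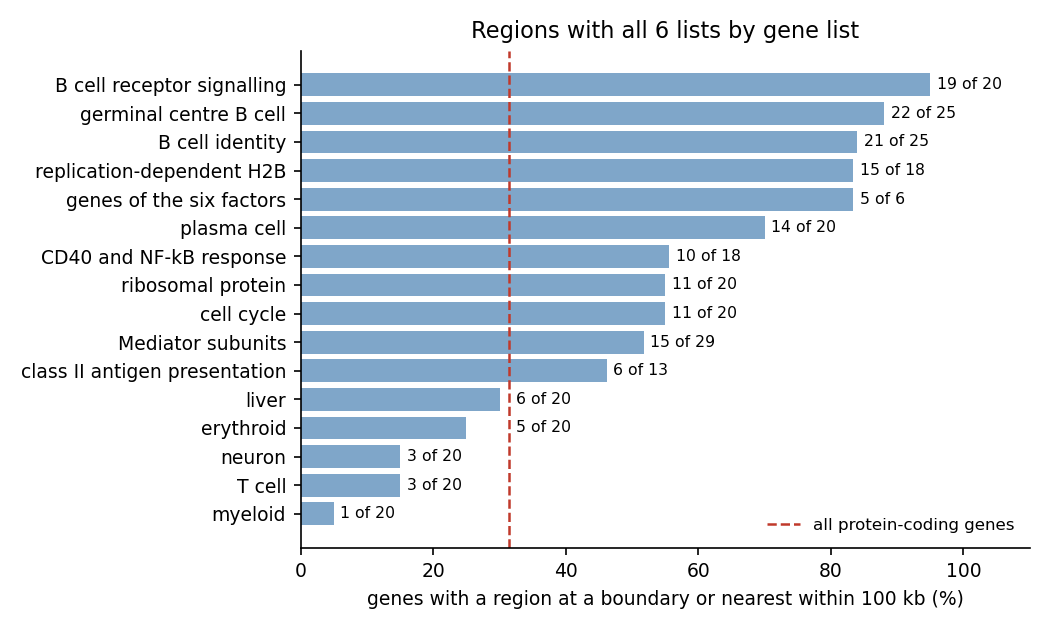
Percent of the genes of each list (x axis) with a region with all 6 factors within 1 kb of an end or as nearest gene within 100 kb, with counts beside the bars and all protein-coding genes as a dashed line at 31.4%. The B cell receptor signalling, germinal centre and B cell identity lists stand at 19 of 20, 22 of 25 and 21 of 25 genes, and the lists of other cell types between 1 of 20 (myeloid) and 6 of 20 (liver), the last close to the line.

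Histone and small nuclear RNA genes held regions at the genes themselves. A region lay within 1 kb of an end of 15 of 18 replication-dependent H2B genes (83.3%), against 18.7% of all protein-coding genes, and H2BC1, H2BC6 and H2BC9 were without. Octamers are a known element of H2B promoters. Over the whole region at H2BC4 the highest folds were 40.3 for OCT2, 25.8 for OCT1 and 31.8 for OCA-B. They were 21.2 for EP300, 44.0 for CREBBP and 67.3 for MED1. The peaks nearest to the H2BC4 octamer were weaker for these coactivators, with 7.10 for EP300, 16.4 for CREBBP and 41.6 for MED1. That MED1 summit lay 931.5 bp from the octamer. Over the region at H2BC21 the highest folds were 52.0 for OCT2, 6.70 for OCT1 and 36.4 for OCA-B. They were 16.3 for EP300, 26.7 for CREBBP and 70.5 for MED1. All 22 listed small nuclear RNA genes, which make spliceosomal RNAs and, in the case of RN7SK, the RNA that regulates the elongation factor P-TEFb, had a region within 1 kb, against 37.0% of the 154 annotated small nuclear RNA genes. Members of these families are near-identical copies, so reads may be placed among them with uncertainty.

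Of the genes of the 6 factors, 5 had a region, against 31.4% of all protein-coding genes. POU2F1 had 5 regions, 1 of them at its end at chr1:167218714-167221429 with folds of 48.9 for OCT2, 50.95 for OCT1, 22.9 for OCA-B, 7.42 for EP300, 12.4 for CREBBP and 9.21 for MED1. The lowest within-list percentile of fold over the 6 lists was 66.3 in that region, against 96.3 in the region of the inner start described above. POU2F2 had 4 regions, whose OCT1 folds ranged from 3.69 to 7.04. POU2AF1 had 3, and the region at its end at chr11:111379020-111380761 had folds of 17.6 for OCT2, 4.64 for OCT1, 16.4 for OCA-B, 23.3 for EP300, 27.4 for CREBBP and 16.0 for MED1. MED1 and EP300 had 1 region each, and CREBBP had none. Among 29 Mediator subunit genes 15 had one (51.7%, against the same 31.4%), led by MED26 with 5.

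Promoter letters were compared in the RefSeq promoter table, which holds 34961 promoters, 300 bases each, on the chromosomes used other than chromosome 8. The regions overlapped 4017 of these promoters. The octamer ATGCAAAT, on either strand, was present in 110 of them (2.74%, exact binomial 95% interval 2.26 to 3.29), against 1.44% (0.931 to 2.11) of promoters at regions with 5 lists, 1.65% (1.49 to 1.83) of promoters without a peak and 1.77% of all promoters. The 110 promoters hold 93 distinct octamer places, since neighbouring starts share some. With regions over 2 kb left out the share was 1.74%, about that of all promoters, so the higher share held only with the wide regions included.

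The other motif letters searched were also described by their shares. The regions' promoters held the CCAAT box (CCAAT) in 42.0%, against 34.6% of all promoters, the ETS letters CCGGAA in 32.4%, against 17.3%, the GC box GGGCGG in 61.3%, against 45.03%, and TATAAA in 7.12%, against 11.5%. Motifs were counted on both strands, and overlaps between different motifs were allowed. The promoters with 1 to 4 lists had the ETS letters in 32.4% and the GC box in 71.4%, so these shares were as high or higher there, and the CCAAT box in 37.0%. The median G+C content of the regions' promoters was 60.3%, against 54.0% of promoters without a peak and 66.7% of those with 1 to 4 lists. The CRE letters TGACGTCA were present in 3.71%, against 3.58% of promoters with 1 to 4 lists and 1.85% of all promoters. The YY1 letters AAGATGGCG were present in 5.13%, against 1.76% of all promoters. They were in 4.02% of promoters with 1 to 4 lists and 3.502% with 5 lists. The E box CACGTG was in 10.904%, against 7.27% of all promoters and 10.13% with 1 to 4 lists. For the RUNX letters TGTGGTT the shares were 4.904%, 4.28% and 2.57%, and for the PU.1 letters GAGGAAGT 3.63%, 2.59% and 2.899%.

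Among the regions' promoters, those with an octamer had the stronger POU factor and OCA-B peaks. With the peak nearest to the promoter taken for each list, the median OCT2 fold was 27.6 at the 110 promoters with an octamer and 8.56 at the 3907 without, a ratio of 3.22. For OCA-B it was 19.6 with and 9.54 without (2.06), and for OCT1 11.2 with and 6.09 without (1.84). The coactivators differed less, with ratios of 1.42 for CREBBP, 1.37 for MED1 and 1.22 for EP300. In regions up to 2 kb, a limit added for this split after the values were seen, the ratios at 57 and 3221 promoters were 2.93 for OCT2, 1.83 for OCA-B, 2.02 for OCT1, 1.09 for CREBBP, 1.03 for MED1 and 1.13 for EP300. In the highest quartile of the promoters by OCT2 fold 99 of 1004 had an octamer (9.86%), against 0 of 1005 in the lowest, which allows up to 0.366% (exact binomial limit). By EP300 fold the highest quartile had 36 of 1004 and the lowest 10 of 1005. Promoters that share an octamer and its peaks were each counted here, with 93 distinct octamer places among the 110. The limit treats them as independent and covers counting error only.

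The summits of the same factors lay nearest to the octamer. From the centre of the octamer to the nearest summit in the region the median distance was 22.5 bp for OCT2, 27 bp for OCA-B and 30.5 bp for OCT1, but 92.5 bp for CREBBP, 106 bp for EP300 and 121.5 bp for MED1. From the CCAAT box, in 1687 promoters, the distances were larger for all 6 lists, with 140 bp for OCT2, 121 bp for OCA-B and 72 bp for OCT1. OCT1 was thus the nearest of the 6 to the CCAAT box, as it also was to the ETS letters (83.5 bp, against 129.5 bp for OCA-B). This did not hold for TATAAA, in 286 promoters. There OCA-B was nearest (120 bp), and OCT1 lay 154 bp away, with only MED1 (164 bp) farther. A match of letters is a description of these windows and not a measured binding site.

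**Figure D5:**
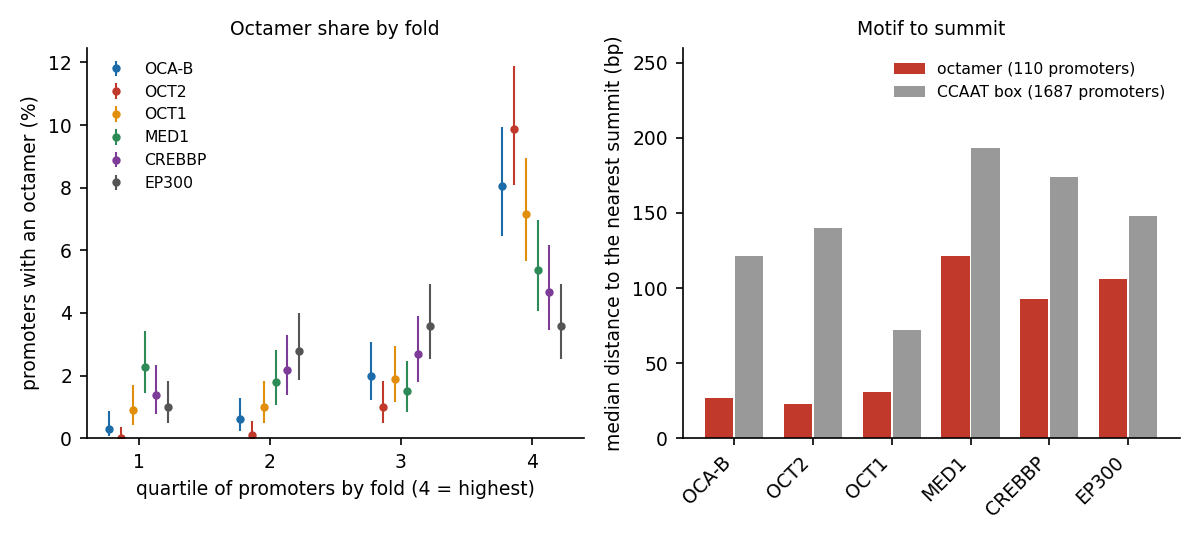
Left, percent of the regions' promoters with an octamer (y axis) in each quartile of these promoters by the fold of each list (x axis), with exact binomial 95% intervals as lines; the highest quartile by OCT2 fold stands at 9.86%. Right, median distance in bp from the octamer (red, 110 promoters) or the CCAAT box (grey, 1687 promoters) to the nearest summit of each list, which is 22.5 and 140 bp for OCT2 and 121.5 and 193 bp for MED1.

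The 110 promoters belonged to 104 genes, of which 22 were histone genes and 11 of these H2B genes. Several B cell genes were among the rest and are named here after their values were seen. At PIM2, a survival kinase gene, 2 octamers lay in chrX:48918975-48919274, and the folds were 53.1 for OCT2, 56.1 for OCT1, 68.3 for OCA-B, 14.1 for EP300, 10.8 for CREBBP and 9.87 for MED1. TLR9, a receptor for DNA, had 25.6 for OCT2, 17.9 for OCT1, 23.3 for OCA-B, 16.2 for EP300, 18.7 for CREBBP and 10.4 for MED1, and its 6 summits lay 2.5 to 24.5 bp from the octamer. VPREB3, a gene of the B lineage, had 21.03 for OCT2, 7.16 for OCT1, 20.7 for OCA-B, 15.9 for EP300, 9.25 for CREBBP and 3.20 for MED1. POU factor and OCA-B peaks close to the octamer were common to these 3 picked genes, while MED1 differed between them. Other genes of the B cell lists did not all share this. At MEF2B, of the germinal centre list, the OCA-B and OCT1 summits lay 5.5 and 9.5 bp from the octamer. The nearest OCT2 summit there lay 2661.5 bp away, and the OCA-B fold was 6.54.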

How the data were processed

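OCI-Ly7 cells gave 1 ChIP-seq library for each of 6 factors, and 1 input library served as control. Per the submitters' processing notes the tools were MACS2 2.1.1.20160309, SAMtools 1.3.1, Bowtie2 2.3.2.2 and CASAVA 1.8.2, with the build hg38. Per the file headers, peaks were called by the authors for each library on its own against the same control, with a q threshold of 0.05 and a bandwidth of 300. The deposited tables give for each peak its position, the pileup signal at the summit, its −log10 q-value and −log10 p-value, and its fold over the control, all as the authors' caller wrote them.

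From these, union regions, shared stretches, summit distances, within-list ranks, clusters and promoter motif matches were computed with Python 3.11.15, numpy 2.4.6, pandas 2.3.3 and scipy 1.17.1, and the steps were checked on simulated peaks. With 1 library per factor and no replicates, no test was run. Intervals of shares are exact binomial (Clopper-Pearson) at 95% and cover counting error only. Medians had 95% intervals from order statistics, and fold ratios had intervals of their own. These are not printed and served only to judge the alternatives below. Gene ends came from the RefSeq table of GRCh38.p14, which gives no strand, and starts with strand and sequences from the RefSeq promoter table, which covers 15812 of the 19974 protein-coding genes. Peaks outside chromosomes 1 to 22 and X were left out. The sequence of distal regions was not used here.

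The regions, the gene lists and the rules for names were chosen with earlier results of these data known. Genes were named as nearest to the 12 regions of highest lowest rank, the 12 genes with most regions, the first 3 genes of each list and those without, the genes of the factors, of the 6 clusters with most regions, of the 5 regions on either side of the limit and of the first 8 octamer promoters. The alternatives tried were a stricter q, shorter lists, narrower definitions of overlap and width, and other distances and motif letters.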

Additional observations from a re-analysis of the deposited data

Results flagged for a closer look

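Peaks of all 6 lists also met outside chromosomes 1 to 22 and X, in sequences that no comparison above used. Merged in the same way, 249 such regions held all 6 lists, of which 38 lay on alternate contigs of chromosome 6, 178 on other alternate contigs and 33 on unplaced or unlocalized sequences, and none on the mitochondrial genome. Alternate contigs repeat sequence of the primary chromosomes, and whether these regions share reads with regions counted above was not tested.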

How the results depend on the processing

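With 1 library per factor the dependence on a replicate could not be measured, the depth of 12357450 to 27885791 tags limits the weak peaks, and membership rests on a threshold on each list. For the named measures the values in the text were 10590 regions, 92.7% with a base under all 6, 31.1% at gene boundaries, 24 bp from OCA-B to OCT2, 37.98% with a neighbour and 2.74% of promoters with an octamer. In no alternative run did a ratio of gene boundary to distal fold change its side of 1, although OCT1 reached 1.00 by pileup. Of the values recomputed under an alternative, 81 moved beyond the 95% interval, or for counts beyond 1.5 times, of the value in the text. Another 20 did not, nor did the 17 gene counts with nearest genes within 50 kb.

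With peaks of −log10 q over 5, 94.5% had a base under all 6, OCA-B lay 23 bp from OCT2, 32.8% had a neighbour, and the median folds were 19.5 for OCT2, 6.23 for OCT1, 13.1 for OCA-B, 21.2 for EP300, 19.5 for CREBBP and 10.7 for MED1. With each list shortened to the 23571 peaks of the shortest, the values were 97.3%, 21.4% at gene boundaries, 21 bp, 33.5% and 4.32% of promoters with an octamer, with folds of 20.9 for OCT2, 5.79 for OCT1, 13.8 for OCA-B, 24.3 for EP300, 24.3 for CREBBP and 12.2 for MED1. With the stronger 50% of each list 5204 regions were left, with 96.3%, 27.0%, 20 bp, 25.7% and 4.54% for the same measures and folds of 23.6 for OCT2, 7.502 for OCT1, 15.8 for OCA-B, 23.7 for EP300, 26.2 for CREBBP and 13.1 for MED1.

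With a base under all 6 required, 28.7% were at gene boundaries, the distance was 23 bp, 35.95% had a neighbour, and the folds were 12.4 for OCA-B, 18.3 for OCT2, 10.1 for MED1, 17.9 for CREBBP and 20.3 for EP300. With all 6 summits within 250 bp there were 6979 regions, 99.3% with a base under all 6, 23.8% at gene boundaries, 19 bp and 25.7% with a neighbour, and folds of 19.9 for OCT2, 5.50 for OCT1, 12.9 for OCA-B, 22.6 for EP300, 20.5 for CREBBP and 10.5 for MED1. Without regions over 2 kb the values were 90.8%, 37.7%, 26 bp, 25.3% with a neighbour and 1.74% of promoters with an octamer, and folds of 14.4 for OCT2, 5.46 for OCT1, 10.7 for OCA-B, 14.2 for EP300, 11.8 for CREBBP and 7.90 for MED1.

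Gene boundaries held 23.7% within 500 bp and 50.1% within 5 kb. Neighbours were present for 27.4% within 5 kb and 49.9% within 20 kb, and an octamer with 1 letter free (ATGNAAAT or ATGCNAAT) in 5.90% of promoters.

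Among alternatives added after the values were seen, stranded starts held 27.4% of the regions. The ratios of gene boundary to distal fold in regions of exactly 6 peaks were 0.884 for OCA-B, 0.800 for MED1 and 0.467 for CREBBP. By pileup they were 0.450 for OCT2, 1.00 for OCT1, 0.655 for MED1 and 0.320 for EP300. In regions up to 2 kb they were 0.499 for OCT2, 1.12 for OCT1, 0.892 for OCA-B, 0.391 for EP300, 0.491 for CREBBP and 0.816 for MED1. The causes of these shifts were not tested.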
